A study of Mus musculus with 24 samples.

Results

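The 66 genes described here reached a higher RNA level in primordial germ cell-like cells (PGCLCs) than in any other cultured cell type that was measured without PCR amplification. They were chosen from 18193 mouse genes by their values: the mean log2 intensity of the PGCLC arrays had to exceed the mean of each of 5 other groups by at least 2, and had to be at least 6. In all, 73 genes, or 0.401% of the array, met these thresholds. Of 11 well-known genes that were left out by name, 7 also met them, namely Prdm1, Dppa3, Gata2, Msx2, Cdx2, Rhox6 and Rhox9. Because the unamplified values chose the genes, they are given below as a description, and tests were made on the amplified arrays, which did not enter the thresholds. The amplified arrays did enter the choice of probe set, the one with the greatest mean over all 24 arrays for each gene.

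Expression had been profiled on Affymetrix arrays in cells of strain C57BL/6, with 2 arrays for each of 12 groups. The 6 unamplified groups were embryonic stem cells (ESCs) kept without feeders in 2i+LIF, epiblast-like cells (EpiLCs) at day 1, day 2 and day 3 after induction from ESCs, epiblast stem cells (EpiSCs) derived from embryonic day 5.75 epiblast, and PGCLCs induced from day 2 EpiLCs. The 6 amplified groups were ESCs, day 2 EpiLCs, EpiSCs, PGCLCs, pre-gastrulation epiblast of embryonic day 5.5 to 6 and PGCs of embryonic day 9.5 (E9.5), whose cDNA went through 22 cycles of PCR from 5 ng of RNA, the amount in about 500 cells. The way PGCLCs and PGCs were purified was not given in the sources used here, nor was the ESC line or the number of embryos pooled. Of the groups used here, only the epiblast and the PGCs were taken directly from embryos, and both exist as amplified arrays only.

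Replicate arrays correlated across genes at r of 0.975 to 0.991 without amplification, the lowest value being that of the PGCLCs, and at 0.911 to 0.972 with it, the lowest being that of the EpiSCs. The summed intensity of 7 germ cell markers was 16189 to 16919 in PGCLCs, 16667 to 18006 in amplified PGCLCs and 17503 to 21596 in PGCs, against at most 6597 in ESCs and at most 1124 in every other group. By this sum the groups labelled as germ cells were the highest. Its largest parts in unamplified PGCLCs were Dppa3, at 4757 and 4276, and Tfap2c, at 4720 and 4561. Tcl1 went the other way, at 2126 and 2197 in unamplified ESCs against 1329 and 1667 in PGCLCs. With amplification Tcl1 read 2598 and 2491 in ESCs, 1982 and 1243 in PGCLCs and 1447 and 1210 in PGCs. The other markers were each higher in germ cell groups than in all others, and Dnd1 among them is also 1 of the 66 genes. The 6 endothelial markers summed to 862 and 1096 in PGCLCs, 1360 and 1850 in amplified PGCLCs, 454 and 797 in PGCs and 106 to 509 elsewhere. Cdh5 among them stayed low, between 14.2 and 38.6 on every array. In unamplified PGCLCs Pecam1 read 704 and 607, Esam 245 and 112 and Emcn 64.1 and 53. On the other unamplified arrays these read at most 217, 71 and 8.03. Tek in unamplified PGCLCs, at 60.1 and 64.1, lay below ESCs at 228 and 225, and Tie1 read at most 7.18 on the unamplified arrays. Hba-x, an embryonic haemoglobin of primitive red blood cells, read 8258 and 3346 on the PGC arrays and at most 208 on any other. The 4 trophoblast markers summed to 317 and 1050 in unamplified PGCLCs, mostly through Cdx2 at 168 and 873, and to at most 191 in the other unamplified groups. Plac1 among them was as high in EpiSCs, at 133 and 132, as in PGCLCs, at 134 and 153, and a longer list of 18 trophoblast genes summed to 1915 and 2665 in PGCLCs, beside 2243 to 2325 in ESCs and 15306 to 16123 in EpiSCs. The sums of 5 visceral endoderm markers were 331 to 361 in unamplified PGCLCs and at most 192 in the other unamplified groups, and those of 4 mesoderm markers 349 to 361 and at most 284. The endoderm sum came mostly from Amn, at 188 and 155, and Cubn, at 135 and 105. A longer list of 16 visceral endoderm genes summed to 2292 to 2755 in PGCLCs, 2581 to 2605 in day 2 EpiLCs and 7302 to 7335 in ESCs. A list of 28 mesoderm genes summed to 1939 to 2698 in PGCLCs, 1203 to 1454 in EpiLCs and 4959 to 5101 in EpiSCs. The part of any such cells in the values below was not tested.

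PGCs are the embryonic founders of sperm and eggs. In the mouse they arise from the epiblast under BMP and WNT signals and are set apart by the transcription factors Blimp1 (Prdm1), Prdm14 and AP-2 gamma (Tfap2c), after which they repress the somatic programme, regain expression of pluripotency genes and migrate to the gonads. In culture PGCLCs are induced from ESCs by way of EpiLCs. Of these regulators, Prdm1 met the thresholds and was left out by name, while Prdm14 and Tfap2c, with margins of 1.61 and 1.77, did not meet them.

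On the unamplified arrays the intensity of the 66 genes in PGCLCs had a median of 316 and ran from 69.9 to 3004. The margin over the next-highest group ran from 2.00 to 6.93 on the log2 scale, with a median of 2.53. That next-highest group was the EpiSCs for 23 genes, the ESCs for 16, day 2 EpiLCs for 11, day 1 EpiLCs for 10 and day 3 EpiLCs for 6. Both PGCLC arrays lay above all 10 other arrays for each of the 66 genes, as the thresholds favour, and for 44 genes by at least 2. In 24 genes all 5 other groups were below 28, the 40th percentile of these arrays, so the size of the margin rests there on weak signals. The PGCLC arrays themselves differed by a median of 0.28 on the log2 scale, and by at most 1.96, for Isl2 at 52 and 203. PGCLC replicate 1 and EpiSC replicate 1 share a code in their array names that no other array carries, whereas all replicate 2 arrays share another. With the replicate 2 arrays alone, 71 genes met the thresholds and 58 of them were among the 66.

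**Figure D1:**
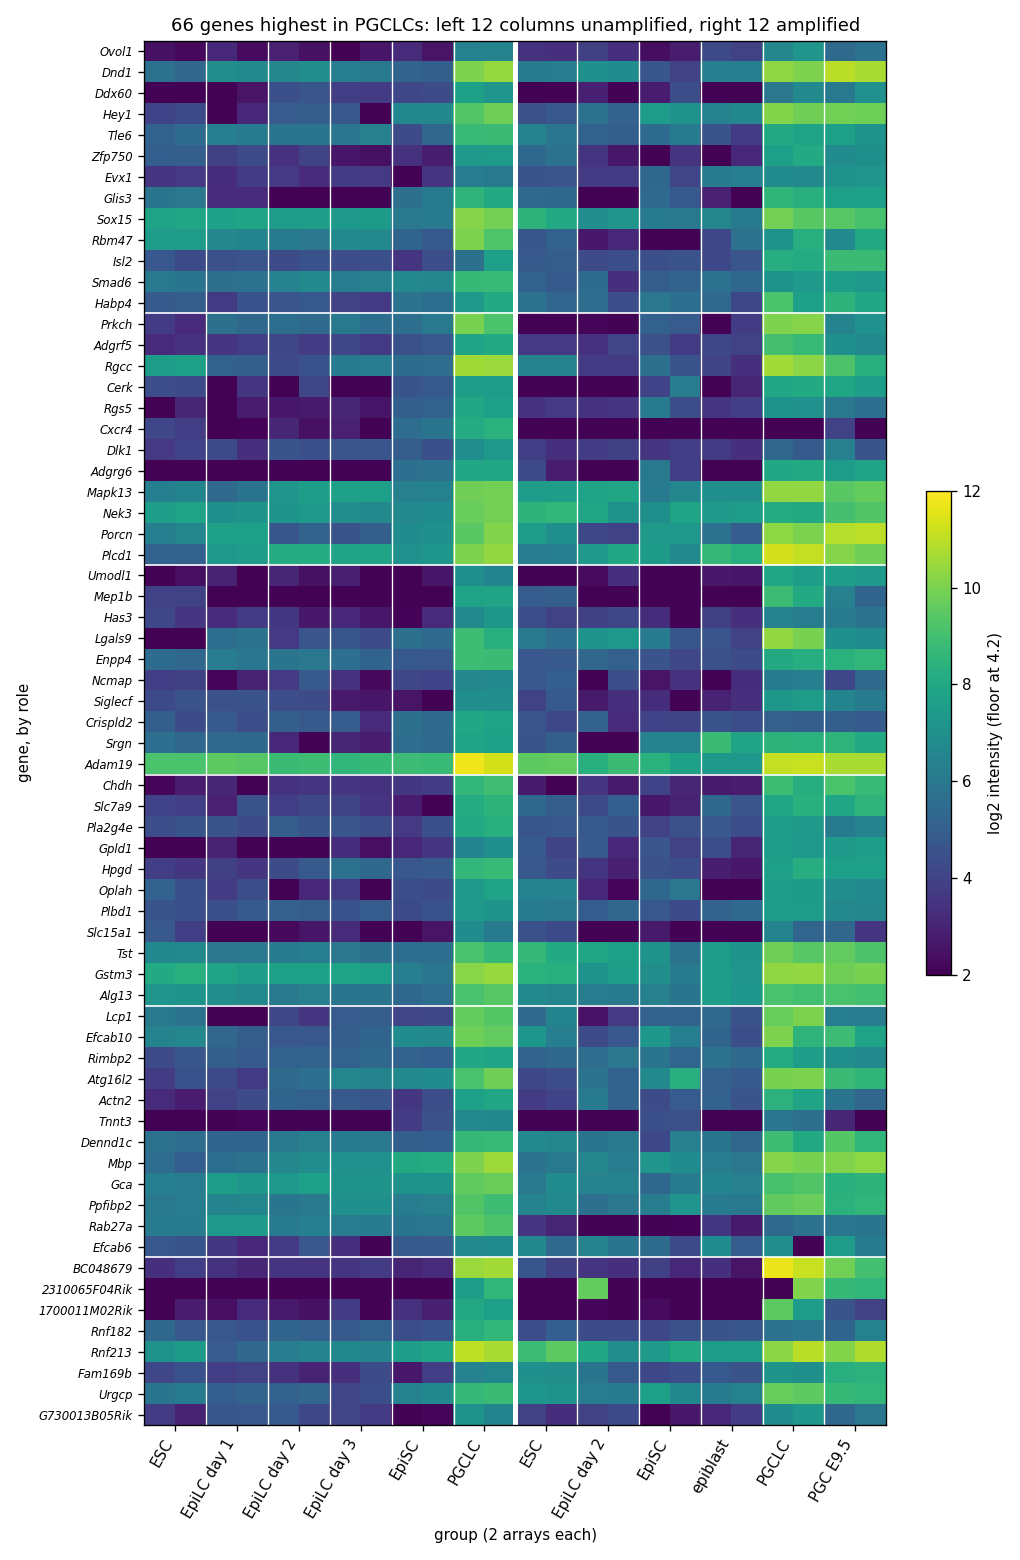
Colour gives log2 intensity, raised to a floor of 4.2, of the 66 genes (vertical, ordered by role, white lines between roles) on each of 24 arrays (horizontal, 2 arrays a group). The left 12 columns are unamplified and the right 12 amplified; most genes light up in the 2 unamplified PGCLC columns and in the 4 amplified columns of PGCLCs and PGCs, while the probe sets plotted for Cxcr4 and Crispld2 do not on the amplified arrays.

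Just inside the margin of 2 were Efcab6 at 2.00, Rab27a at 2.01, Plcd1 at 2.04, Habp4 at 2.06 and Smad6 at 2.06. Just outside it were Igfbpl1 at 1.99, Ptges2 at 1.98, Septin4 at 1.97, Parp12 at 1.94 and Rffl at 1.89. A change of 0.5 in the margin moved the set far, to 102 genes at 1.5 and to 34 at 2.5. At the lower limit of level, Evx1 with a mean log2 of 6.13 was in, and Crxos with 5.97 was out.

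The genes were spread over the genome. Chromosome 7 and chromosome 11 carried 7 each, and no other chromosome more than 5. Only Adgrf5 and Enpp4, 637 kb apart on chromosome 17, lay within 2 Mb of each other. Promoter windows, from 250 bases before to 50 after an annotated start, were found for 52 of the 66 genes in the RefSeq table (GRCm38.p6), 71 windows in all. The AP-2 motif GCCNNNGGC, which reads the same on both strands, was in 25.4% of them, against 16.6% of all 32851 windows and 22.1% of the windows of genes on the array. The windows of these genes had a GC content of 57.4%, against 53.8% over all windows. The Blimp1 motif GAAAGNGAA was in 2.82%, against 2.72% of all windows and 2.65% of those of array genes, and the BMP-SMAD motif GGCGCC in 9.86%, against 11.9% and 17.6%. Windows of 4 genes that recur below are shown because they hold an AP-2 match and stand for different roles and outcomes: Chdh and Smad6, not called between PGCLCs and PGCs, and Lcp1 and Rgcc, with higher means in PGCLCs than in PGCs. Each is on the strand of its gene, and capitals mark the matches. For Chdh the window with the most matches is shown, chr14:30022383-30022682 on the plus strand, with matches at -93 and 10 from its start. Its window at chr14:30008750-30009049 had 1 match, at -202, and that at chr14:30021053-30021352 had none. The Lcp1 window shown is chr14:75130873-75131172 on the plus strand, with a match at -6, and another Lcp1 window had none. For Rgcc it is chr14:79301586-79301885 on the minus strand, with a match at -38, and for Smad6 chr9:64022010-64022309 on the minus strand, with matches at -223 and -99.
Chdh: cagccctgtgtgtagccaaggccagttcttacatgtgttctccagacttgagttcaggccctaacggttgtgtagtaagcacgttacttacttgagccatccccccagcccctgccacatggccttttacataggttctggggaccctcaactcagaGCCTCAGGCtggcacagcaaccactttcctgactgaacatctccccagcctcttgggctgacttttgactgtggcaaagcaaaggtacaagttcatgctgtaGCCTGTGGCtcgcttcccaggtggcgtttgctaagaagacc
Lcp1: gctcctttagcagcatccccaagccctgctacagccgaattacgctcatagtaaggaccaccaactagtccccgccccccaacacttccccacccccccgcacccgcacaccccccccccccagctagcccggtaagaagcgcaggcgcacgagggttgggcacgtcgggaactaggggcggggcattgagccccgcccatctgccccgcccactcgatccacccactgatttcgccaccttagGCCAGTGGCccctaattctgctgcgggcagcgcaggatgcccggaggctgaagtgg
Rgcc: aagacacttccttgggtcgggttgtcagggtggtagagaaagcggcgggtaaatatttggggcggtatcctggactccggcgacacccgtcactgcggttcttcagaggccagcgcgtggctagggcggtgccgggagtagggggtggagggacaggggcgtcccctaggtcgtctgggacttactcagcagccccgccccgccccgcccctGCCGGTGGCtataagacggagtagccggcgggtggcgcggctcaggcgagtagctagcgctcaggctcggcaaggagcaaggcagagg
Smad6: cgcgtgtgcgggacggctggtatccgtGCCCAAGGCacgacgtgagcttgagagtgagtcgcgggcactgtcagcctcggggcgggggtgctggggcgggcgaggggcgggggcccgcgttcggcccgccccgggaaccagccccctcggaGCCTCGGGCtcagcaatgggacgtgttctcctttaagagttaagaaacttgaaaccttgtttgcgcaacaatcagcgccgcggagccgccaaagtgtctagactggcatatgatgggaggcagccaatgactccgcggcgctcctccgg
A match of this kind is a string of letters in a window and not a measured binding site.

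The first question for the amplified arrays was whether the PGCLC excess was found again. A gene was called where limma gave an adjusted p (two-sided, Benjamini-Hochberg over 15611 genes) under 0.05 and a log2 difference of at least 1 in size. Of the 66 genes 65 passed the filter on low signals; Cxcr4 did not. Another 19 passed it through the germ cell arrays alone, so the counts that follow are also given with no filter. In PGCLCs 52 genes were called higher than in ESCs, where 5.84% of all genes were, 60 higher than in day 2 EpiLCs (6.47% of all), 59 higher than in EpiSCs (5.71%) and 56 higher than in epiblast (7.89%). With no filter the counts over all 66 were 52, 60, 60 and 56. With the mean of a gene's probe sets in place of the chosen probe set they were 51, 60, 59 and 56. None was called lower in PGCLCs in these 4 comparisons, in which 5.23%, 6.24%, 10.4% and 5.81% of all genes were. In all 4 comparisons at once 48 were called higher, or 49 with no filter (1.41% of all genes with it), and in at least 1 of them 60 were (13.9%). The 2 PGCLC arrays lay above all 8 non-germ arrays for 59 genes, against 7.17% of all genes tested. The median difference over all 66 genes was 2.95 to ESCs, 3.46 to day 2 EpiLCs, 3.22 to EpiSCs and 3.60 to epiblast, while over all genes it lay between -0.03 and 0.00. These comparisons share the PGCLC arrays, and the 4 counts are not independent of each other. In these bulk samples, fewer cells of a type and less RNA per cell cannot be told apart.

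The second question was whether the same genes were high in PGCs of the embryo, which no threshold had used but the choice of probe set had. PGCs were called higher than ESCs in 47 of the genes (6.93% of all genes tested), than day 2 EpiLCs in 57 (5.98%), than EpiSCs in 54 (4.88%) and than epiblast in 54 (6.11%). None was called lower than in ESCs, day 2 EpiLCs or epiblast, where 7.21%, 6.26% and 4.36% of all genes were. In 40 genes PGCs were called higher than in all 4 groups (1.41% of all), and in 60 higher than in at least 1 (12.7%). With no filter the counts were 45, 56, 50 and 53, and 36 over all 4 groups. With the mean of a gene's probe sets they were 43, 56, 51 and 54, and 34 over all 4 groups. The PGC counts hold 7 calls upward, for Slc15a1 and a gene with a provisional name, in which the means of both groups lay under 24, the 40th percentile of the amplified arrays and the level of the filter; such values have no order, and without these calls the counts were 46, 55, 52 and 52, and 39 over all 4. Leaving out PGC replicate 1 lowered the 40 to 26, and leaving out replicate 2 lowered it to 25. PGCLCs and PGCs were both called higher than all 4 groups in 38 genes, against 0.814% of all genes. The 2 PGC arrays lay above all 8 non-germ arrays for 54 genes (6.66% of all). The fit also called Tnnt3 lower in PGCs than in EpiSCs (9.39% of all genes were), at 8.44 and 4.2 against 21.6 and 22.2, but all 4 values lay under the filter level and have no order.

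**Figure D2:**
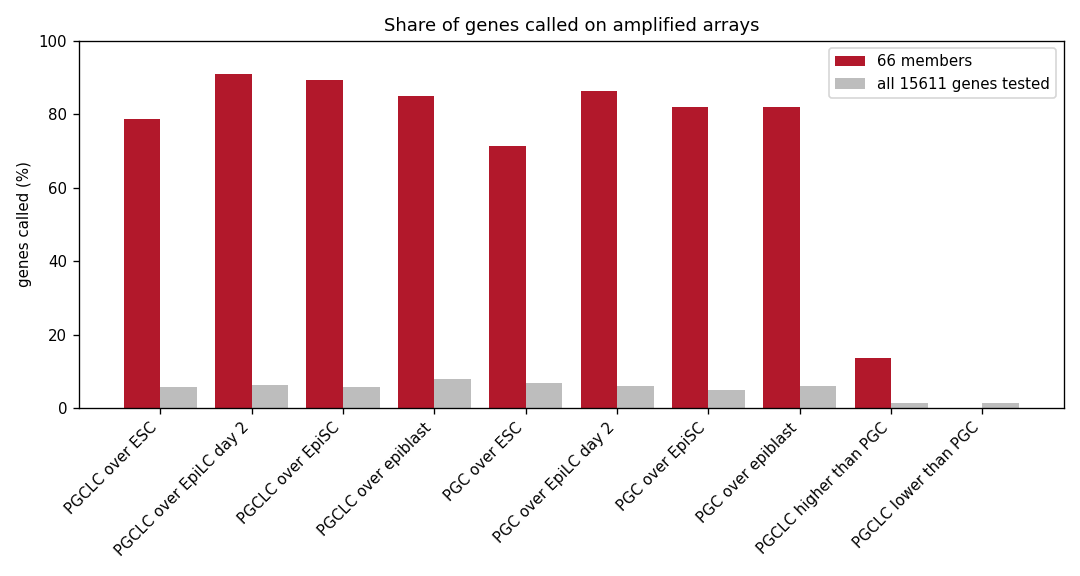
Bars give the percentage of genes called in each amplified comparison (horizontal), for the 66 genes in red and for all 15611 genes tested in grey. The red bars stand far above the grey ones in the 8 comparisons with non-germ groups, 9 of the genes were called higher in PGCLCs than in PGCs, and none was called lower.

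Regulators of gene expression made up 13 of the 66 genes. All 13 were called higher in PGCLCs than in day 2 EpiLCs, 11 of them were called over all 4 groups in PGCLCs, and 9 in PGCs. Of all 65 members tested the counts were 60, 48 and 40, and of all genes tested the shares were 6.47%, 1.41% and 1.41%. Roles were assigned after the values were seen. The counts by role, here and below, therefore describe the set and do not set a role apart. Dnd1, an RNA-binding protein that germ cells of the mouse need to survive, read 1075 and 1352 in unamplified PGCLCs and 32.3 to 122 on the other 10 arrays. With amplification it read 1308 and 1081 in PGCLCs, 2002 and 1702 in PGCs and 15.6 to 128 elsewhere. Both germ cell groups stood clear of all others, and PGCs exceeded epiblast by 4.55 ± 0.27 (log2 ± standard error, adjusted p = 1.9e-05). Hey1, a repressor downstream of Notch signals, read 635 and 903 in PGCLCs and 4.2 to 102 on the other unamplified arrays, with EpiSCs at 102 and 101. Its amplified values were 1134 and 923 in PGCLCs, 937 and 891 in PGCs and 22.4 to 179 elsewhere. On the amplified arrays the Hey1 values of germ cells thus lay above the rest, by 4.55 ± 0.27 between PGCLCs and day 2 EpiLCs (adjusted p = 1.4e-05) and by 3.28 ± 0.27 between PGCs and epiblast (adjusted p = 8.4e-05).

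Isl2, a LIM homeodomain factor known from motor neurons, was uneven in unamplified PGCLCs, at 52 and 203, but even with amplification, at 302 and 282 in PGCLCs and 455 and 448 in PGCs. Its other 8 amplified arrays read 18 to 31, so the groups did not overlap. PGCs exceeded epiblast by 4.41 ± 0.24 (adjusted p = 1.5e-05). Glis3, a zinc-finger factor known from pancreas and kidney, read 371 and 317 in amplified PGCLCs, 206 and 200 in PGCs, 4.2 on both day 2 EpiLC arrays and 7.47 and 4.2 in epiblast. The fold over day 2 EpiLCs was at least 14.3 (adjusted p = 8e-06), because the lower group lay under 24, the 40th percentile of the amplified arrays, and that level took its place. Ovol1, a zinc-finger repressor of epithelia and of male germ cells in the mouse, read 85.1 and 89 in unamplified PGCLCs and 4.2 to 9.26 on the other arrays. Amplified, it read 99.2 and 147 in PGCLCs and 43.4 and 52.5 in PGCs, with 5.24 to 18.3 elsewhere. The PGC excess over epiblast, at least 1.99-fold (adjusted p = 0.0183), was lost without any 1 of the 4 arrays compared. Sox15, a SOX-family factor, read 969 and 699 in amplified PGCLCs and 669 and 551 in PGCs, and its next-highest arrays were ESCs at 354 and 268. Its PGC excess over ESCs, 0.98 ± 0.28, fell short of the size required.

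Of the fixed pathway lists, BMP signalling and posterior mesoderm each had 1 gene among these regulators. Smad6, the inhibitory SMAD that BMP signals induce, read 413 and 437 in unamplified PGCLCs and 51.9 to 107 on the other arrays. Its amplified values were lower, 142 and 166 in PGCLCs, 192 and 168 in PGCs, 53.5 and 41.9 in epiblast and 10.3 to 45.4 in the other groups. The germ cell arrays lay above all others. The excess over day 2 EpiLCs was 2.83 ± 0.55 in PGCLCs (adjusted p = 0.00764, lost without PGCLC replicate 2). Against epiblast the difference was 1.70 ± 0.55 in PGCLCs (adjusted p = 0.069) and 1.92 ± 0.55 in PGCs (adjusted p = 0.0519), and both were called in a fit blocked by replicate number, at adjusted p = 0.0381 and 0.0273. Evx1, a homeobox gene of the primitive streak, read 74.1 and 65.9 in unamplified PGCLCs and 4.2 to 13.7 elsewhere. On the amplified arrays it was 112 and 107 in PGCLCs, 140 and 149 in PGCs, and 68.8 and 76.6 in epiblast. Epiblast thus came close to the germ cells, and the difference was 0.60 ± 0.37 for PGCLCs (adjusted p = 0.359) and 1.00 ± 0.37 for PGCs (adjusted p = 0.129).

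The remaining regulators were Tle6, a corepressor relative known from the egg, the epidermal factor Zfp750, the RNA-binding proteins Rbm47 and Habp4, and the antiviral helicase Ddx60. All 5 were called over all 4 groups in PGCLCs, and all but Zfp750 in PGCs. Zfp750 read 113 and 127 in PGCs and 40.6 and 53.9 in ESCs, a difference of 1.36 (adjusted p = 0.134).

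**Figure D3:**
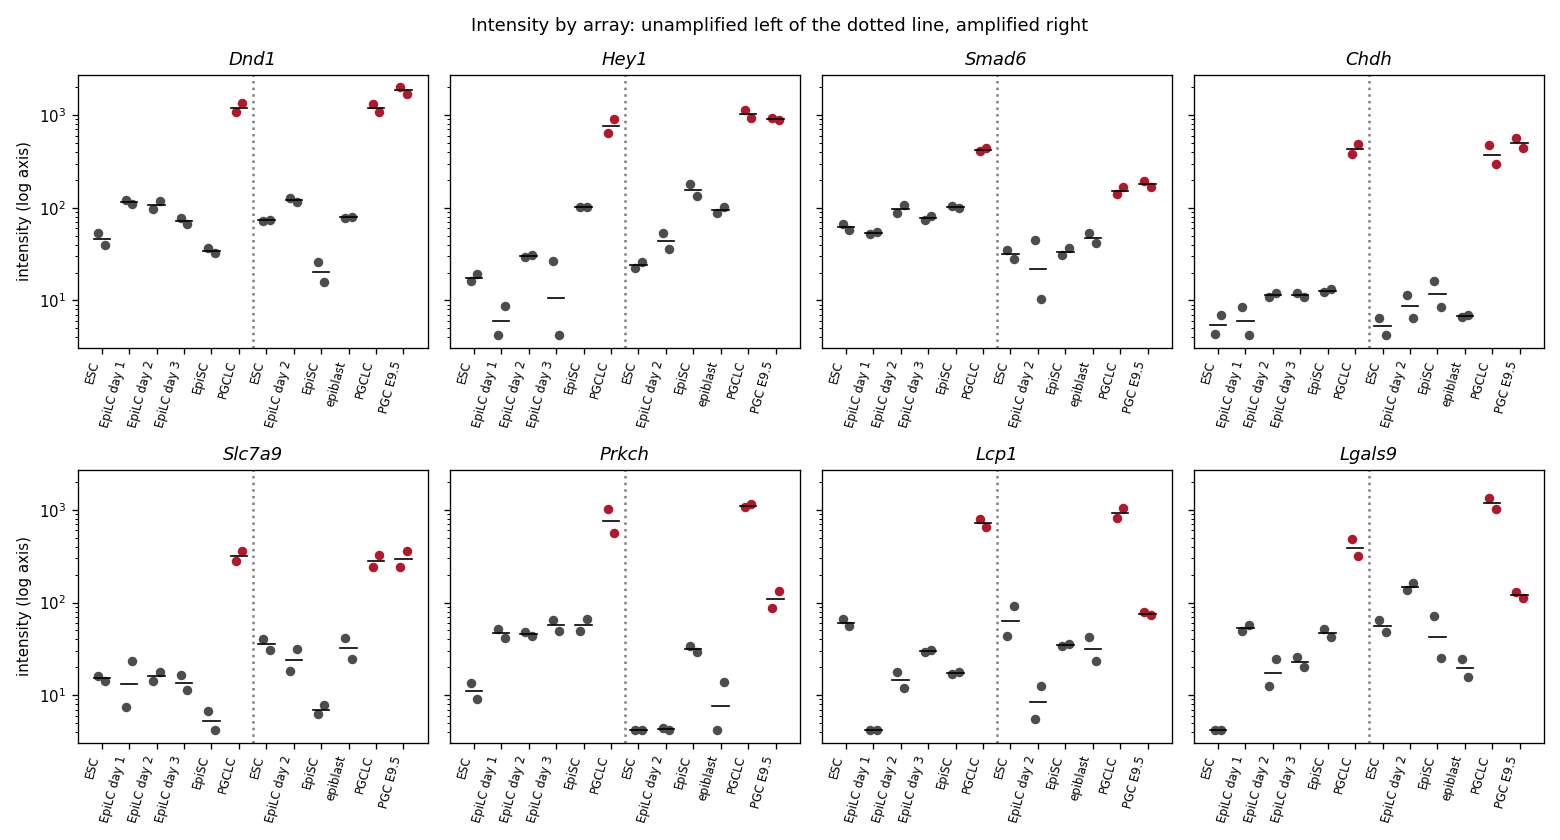
Each panel gives the intensity (vertical, log axis) of 1 gene on all 24 arrays by group (horizontal), with unamplified arrays left and amplified arrays right of the dotted line; points are arrays, short lines are group means on the log scale, and PGCLCs and PGCs are red. For Dnd1, Hey1, Smad6, Chdh and Slc7a9 both red amplified groups lie above the rest, whereas for Prkch, Lcp1 and Lgals9 PGCs lie well below PGCLCs.

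Receptors and signalling proteins made up 12 genes, of which 11 were tested. In PGCLCs 9 were called over all 4 groups, and in PGCs 8. Prkch, protein kinase C eta, read 1015 and 570 in unamplified PGCLCs and 9.06 to 65.9 on the others. Amplified, it read 1074 and 1157 in PGCLCs, 88.1 and 134 in PGCs, 34.1 and 29.5 in EpiSCs and at most 13.8 elsewhere. By this probe set PGCs were thus above the non-germ groups but far below PGCLCs. The PGCLC excess over epiblast was at least 46.4-fold (adjusted p = 2.2e-05) and that of PGCs at least 4.53-fold (adjusted p = 0.000904). The PGC excess over EpiSCs, 1.78 ± 0.48 (adjusted p = 0.0333), was lost without any 1 of the 4 arrays compared. Adgrf5, an adhesion G protein-coupled receptor, read 226 and 274 in unamplified PGCLCs and 9.26 to 26 elsewhere. Its amplified values were 536 and 434 in PGCLCs, 130 and 110 in PGCs and 10.7 to 22.4 on the other arrays. It was called over all 4 groups in both germ cell types, by at least 20.1-fold between PGCLCs and epiblast (adjusted p = 2.5e-05) and at least 4.98-fold between PGCs and epiblast (adjusted p = 0.000652). Adgrg6, of the same receptor class, was at the floor of 4.2 in unamplified ESCs and EpiLCs, at 50.8 and 53.8 in EpiSCs and at 251 on both PGCLC arrays. It read 255 and 272 in amplified PGCLCs and 180 and 227 in PGCs, at least 8.42-fold over epiblast in the latter (adjusted p = 0.000575).

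Porcn, the acyltransferase that WNT proteins need for their secretion, read 1266 and 1030 in amplified PGCLCs and 1917 and 2048 in PGCs, against 15.5 to 185 on the other 8 arrays. PGCs exceeded epiblast by 5.62 ± 0.31 (adjusted p = 1.5e-05). Rgcc, a regulator of the cell cycle, read 1565 and 1218 in PGCLCs, 585 and 310 in PGCs and 10.5 to 89.5 elsewhere. Its PGC excess over epiblast was at least 17.7-fold (adjusted p = 8.9e-05). Both were called over all 4 groups in both germ cell types, as were Cerk, which phosphorylates ceramide, the p38-family kinase Mapk13 and the phospholipase Plcd1. Rgs5, which switches off G proteins, was called over all 4 groups in PGCLCs and over 3 in PGCs.

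Cxcr4, the receptor by which migrating PGCs follow the chemokine Cxcl12, behaved otherwise. It read 284 and 333 in unamplified PGCLCs, 47 and 59.9 in EpiSCs and at most 17.4 elsewhere. On the amplified arrays PGCLCs read 4.21 and 4.2, PGCs 15.2 and 4.2, and all 8 other arrays were at the floor of 4.2. The probe set gave next to no signal after amplification, so the amplified arrays hold no measurement of Cxcr4 in PGCs. Dlk1, an imprinted transmembrane relative of Notch ligands, read 119 and 168 in unamplified PGCLCs and 10.5 to 30.8 on the others. It fell to 39.4 and 28.6 in amplified PGCLCs and read 82.2 and 24.3 in PGCs, with 10.1 to 14.7 elsewhere. The germ cell arrays lay above the rest, but PGCLCs were called over none of the 4 groups, the difference to epiblast being 1.54 ± 0.52 (adjusted p = 0.0809, 0.0419 with the block). PGCs were called higher than ESCs, EpiSCs and epiblast, each by at least 1.86-fold (adjusted p = 0.0357, 0.0432 and 0.0397), and all 3 calls were lost without PGC replicate 1 or either array of the other group. Nek3, a NIMA-family kinase, read 813 and 955 in unamplified PGCLCs and 104 to 221 elsewhere, but 288 and 271 in amplified PGCLCs, below ESCs at 349 and 397. It was called in PGCLCs over none of the 4 groups, while PGCs, at 532 and 619, exceeded epiblast by 1.72 ± 0.34 (adjusted p = 0.0101, lost without epiblast replicate 1 or 2 or PGC replicate 2).

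Enzymes and transporters of metabolism made up 11 genes. All 11 were called higher in PGCLCs than in day 2 EpiLCs and all 11 higher in PGCs than in epiblast, and 8 and 7 of them over all 4 groups. The call of Slc15a1 in PGCs over epiblast set means of 21.5 and 4.2 against each other. Both lay under the filter level and have no order. Chdh, the mitochondrial choline dehydrogenase that starts the conversion of choline to betaine, had the largest margin among genes with full names. It read 378 and 493 in unamplified PGCLCs and 4.2 to 13.3 on the other 10 arrays. Amplified, it read 471 and 298 in PGCLCs, 571 and 437 in PGCs and 4.2 to 16.2 on the other 8. The 4 germ cell arrays lay far above all others, at least 15.6-fold between PGCLCs and epiblast (adjusted p = 3.7e-05) and at least 20.8-fold between PGCs and epiblast (adjusted p = 3.5e-05). Slc7a9, the light subunit of the transporter that takes up cystine and dibasic amino acids, read 282 and 357 in unamplified PGCLCs and 4.2 to 23.5 elsewhere. It read 244 and 327 in amplified PGCLCs and 242 and 359 in PGCs, against 6.19 to 41.4. PGCs exceeded epiblast by 3.20 ± 0.38 (adjusted p = 0.000652).

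Gpld1, a phospholipase D that releases glycosylphosphatidylinositol-anchored proteins, read 91.4 and 127 in unamplified PGCLCs and 4.2 to 12 elsewhere. Its amplified values, 185 and 161 in PGCLCs and 167 and 191 in PGCs, lay above 8.19 to 28.6 on the other arrays, at least 7.45-fold over epiblast in PGCs (adjusted p = 0.00295). Pla2g4e, a cytosolic phospholipase A2, read 275 and 305 in unamplified PGCLCs and 12.5 to 30.9 elsewhere, then 178 and 168 in amplified PGCLCs and 72.3 and 88.4 in PGCs against 15.4 to 26.6. It was called over all 4 groups in both. Hpgd, which degrades prostaglandins, read 198 and 297 in amplified PGCLCs, 199 on both PGC arrays and 6.25 to 25.9 elsewhere, an excess of PGCs over epiblast of at least 8.30-fold (adjusted p = 2.6e-05). Gstm3, a glutathione S-transferase, and Alg13, which acts in N-glycosylation, were called over all 4 groups in both germ cell types. In ESCs several genes of this group had a signal of their own: Tst, a mitochondrial sulfurtransferase, read 401 and 277 there, against 912 and 683 in amplified PGCLCs, and Oplah, the 5-oxoprolinase of the glutathione cycle, 83.8 and 86.7 against 193 and 173. Neither was called over ESCs in PGCLCs, at adjusted p = 0.0705 for Oplah and 0.0907 for Tst, which was called with the block at 0.013. Slc15a1, a peptide transporter, and Plbd1, a phospholipase-B-like protein, completed the group; Slc15a1 read 39.2 and 11.7 in PGCs, a mean under the filter level.

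Cell-surface and secreted proteins made up 10 genes, with 7 called over all 4 groups in PGCLCs and 5 in PGCs. Umodl1, a relative of uromodulin, read 125 and 90.7 in unamplified PGCLCs and 4.2 to 8.43 elsewhere. It read 238 and 188 in amplified PGCLCs and 192 and 171 in PGCs against 4.2 to 10.2, at least 8.81-fold and 7.55-fold over epiblast (adjusted p = 3.7e-05 and 6.7e-05). Mep1b, the beta subunit of the metalloprotease meprin, read 225 and 230 in unamplified PGCLCs, 15.4 and 15.1 in ESCs and 4.2 on the other 8 arrays. It read 461 and 280 in amplified PGCLCs, 81.6 and 37.6 in PGCs, 30.1 and 32.2 in ESCs and 4.2 elsewhere, so that the PGC arrays lay above the ESC arrays, by 0.83 ± 0.41 (adjusted p = 0.233). Adam19, a membrane-bound metalloprotease, had a signal in every group: 385 to 712 on the unamplified arrays outside PGCLCs and 3422 and 2637 within. It read 2168 and 2283 in amplified PGCLCs, 1688 and 1704 in PGCs and 159 to 766 elsewhere, an excess of 3.41 ± 0.27 of PGCs over epiblast (adjusted p = 6.7e-05).

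Lgals9, a galectin, read 481 and 320 in unamplified PGCLCs and 4.2 to 56.8 elsewhere. Its amplified values were 1349 and 1025 in PGCLCs, 129 and 113 in PGCs and 135 and 162 in day 2 EpiLCs, so PGCs overlapped no PGCLC array and lay below the EpiLCs, although above epiblast by 2.61 ± 0.44 (adjusted p = 0.00475). Srgn, the proteoglycan of secretory granules, had amplified values in epiblast, which has no unamplified arrays, that overlapped those of germ cells. It read 232 and 213 in unamplified PGCLCs and 4.2 to 49.8 elsewhere. With amplification it read 349 and 337 in PGCLCs and 360 and 273 in PGCs, and 453 and 229 in epiblast, which overlapped both; PGCs differed from epiblast by -0.04 ± 0.33 (adjusted p = 0.978). Has3, a hyaluronan synthase, the ectoenzyme Enpp4 and the sialic acid-binding lectin Siglecf were called over all 4 groups in both germ cell types, and Ncmap, a protein of myelinating glia, over 3 in PGCLCs and none in PGCs. Crispld2, a secreted protein, read 255 and 215 in unamplified PGCLCs and 9.23 to 51.9 elsewhere, but 33.5 and 30.9 in amplified PGCLCs and 32.4 and 28.2 in PGCs, within the 9.21 to 35.4 of the other arrays. By this probe set it was called over none of the 4 groups in either.

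Proteins of the cytoskeleton and of vesicle traffic made up 12 genes, with 9 called over all 4 groups in PGCLCs and 6 in PGCs. Lcp1, the actin-bundling L-plastin known from white blood cells, read 805 and 660 in unamplified PGCLCs, 66.1 and 55.3 in ESCs and 4.2 to 30.7 elsewhere. Amplified, it read 808 and 1049 in PGCLCs but 78.2 and 72.6 in PGCs, between the ESC arrays at 44.1 and 91. PGCs differed from ESCs by 0.25 ± 0.47 (adjusted p = 0.81) and from epiblast by 1.25 ± 0.47 (adjusted p = 0.134). Actn2, the alpha-actinin of sarcomeres, read 203 and 241 in unamplified PGCLCs and 6.87 to 37.2 elsewhere, 341 and 232 in amplified PGCLCs, and 58 and 39.4 in PGCs beside 67.2 and 36 in day 2 EpiLCs. Tnnt3, the troponin T of fast skeletal muscle, read 104 and 102 in unamplified PGCLCs, 13.7 and 22.3 in EpiSCs and 4.2 to 4.36 elsewhere, and 60.9 and 52.1 in amplified PGCLCs. In PGCs Lcp1 was called higher only than day 2 EpiLCs, at least 3.14-fold (adjusted p = 0.00188). Actn2 was called higher only than ESCs, at least 1.99-fold (adjusted p = 0.017), a call lost without either ESC array or PGC replicate 1. Tnnt3 read 8.44 and 4.2 in PGCs, under the filter level.

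Mbp, known for its product in myelin, read 1080 and 1499 in unamplified PGCLCs and 31.8 to 286 elsewhere. It read 1163 and 1029 in amplified PGCLCs, 1100 and 1250 in PGCs and 55.9 to 147 on the other 8 arrays, with PGCs over epiblast by 4.09 ± 0.24 (adjusted p = 1.9e-05). A further probe set of Mbp read 197 in unamplified PGCLCs and at most 28 in another group. Its remaining probe sets read only 15.4 to 37.8 in unamplified PGCLCs, with margins of -0.52 to 0.64. With amplification these read 24 to 70.2 in PGCLCs and 19.8 to 84.1 in PGCs, against at most 23.3 in non-germ groups. Rab27a, a GTPase of secretory organelles, was called over all 4 groups in both germ cell types at a much lower signal, 42.3 and 52.9 in PGCLCs against 742 and 595 without amplification. Gca, a calcium-binding protein of granules, Ppfibp2 of the liprin family and Rimbp2, known from presynaptic active zones, were also called over all 4 in both. Dennd1c, an activator of Rab GTPases, was called over 3 groups in PGCLCs and all 4 in PGCs. Atg16l2, a relative of an autophagy protein, and Efcab10 were called over all 4 groups in PGCLCs, and over 3 and 2 in PGCs. Efcab6 read 112 and 113 in unamplified PGCLCs but 122 and 4.2 in amplified ones, where the replicates did not agree, and was called in none of the 8 comparisons with non-germ groups.

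The last 8 genes belong to none of these roles, and 4 of them carry provisional names. Rnf182, a ubiquitin ligase, read 312 and 391 in unamplified PGCLCs and 21.2 to 42.1 elsewhere, but 53.2 and 60.5 in amplified PGCLCs and 37.7 and 83.9 in PGCs against 17.9 to 31.7. It was called in PGCLCs over 2 of the 4 groups. Over day 2 EpiLCs the excess was at least 2.36-fold (adjusted p = 0.0302), lost without any 1 of the 4 arrays compared, and against epiblast it was 2.29-fold (adjusted p = 0.072, 0.0261 with the block). Rnf213, a large ubiquitin ligase, read 1241 and 1986 in amplified PGCLCs and 1130 and 1780 in PGCs, with ESCs next at 458 and 722. It was called over 3 groups in both; against ESCs the adjusted p was 0.0604 in PGCLCs and 0.0757 in PGCs, and 0.0337 and 0.0436 with the block. Urgcp was called over all 4 in both, and Fam169b over 3 in PGCLCs and all 4 in PGCs. Of the provisional names, 3 were called over all 4 groups in both germ cell types, although for 1 of them the PGC mean of 19.6 lay under the filter level, and 1, with amplified PGCLC arrays at 4.2 and 1105, in none of the 8 comparisons with them.

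PGCLCs and PGCs were then compared directly, to ask where the culture and the embryo differ among these genes. The genes had been chosen for high PGCLC values on the unamplified arrays, which favours differences toward PGCLCs. The balance of directions among the 66, set beside all genes, is therefore not a test of culture against embryo. PGCLCs were called higher in 9 genes (1.56% of all genes tested) and lower in none (1.33%). The median difference over all 66 genes was 0.39, against 0.00 over all genes, and 46 of the 66 were above 0. The 7 with full names were Lcp1, higher by 3.61 ± 0.47 (adjusted p = 0.00438), Prkch by 3.36 ± 0.48 (0.00684), Lgals9 by 3.28 ± 0.44 (0.00548), Mep1b by 2.70 ± 0.41 (0.00885), Actn2 by 2.56 ± 0.40 (0.0104), Adgrf5 by 2.01 ± 0.34 (0.0146) and Tnnt3, at least 2.35-fold higher (0.00479). In each of the 7, both PGCLC arrays lay above both PGC arrays. Their roles differ, with 3 in the cytoskeleton, 2 in signalling and 2 at the cell surface, and no gene regulator was among them. The comparison was sensitive to single arrays. Without PGCLC replicate 1, 2 of the 9 were called, and of the 4 arrays this was the only one whose absence ended the calls of Lgals9, Mep1b and Tnnt3. The call of Actn2 was also lost without PGC replicate 2, that of Prkch without PGCLC replicate 1 or 2 or PGC replicate 1, and that of Adgrf5 without any 1 of the 4. For Adgrf5 the mean of all its probe sets gave 0.70. Over all genes 244 were called higher and 208 lower, but 49 and 42 without PGCLC replicate 1. In a limma fit of these 4 arrays alone none of the 66 genes was called, nor was any of all genes tested, whereas 14 were with the floor at the 40th percentile and 16 without the EpiSC arrays, an alternative chosen after seeing the data in which 393 of all genes were called higher.

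In a fit blocked by replicate number, 13 were called higher, where 400 of all genes were instead of 244, adding Rgcc at 1.70 (adjusted p = 0.0146), Ppfibp2 at 1.15 (0.0321), Plcd1, 2.29-fold higher (0.0407), and Pla2g4e at 1.11 (0.0443). Fam169b was then called lower in PGCLCs, at -1.26 (0.047). Fam169b read 146 and 126 in PGCLCs and 310 and 343 in PGCs. Markers of other cells moved between the same arrays. Of the endothelial markers, Tie1 read 106 and 110 in amplified PGCLCs and 22.4 and 12.7 in PGCs, and Emcn 276 and 333 against 55.1 and 26.2, while Cdh5 read 19.3 and 23.3 against 26 and 21.6. The 6 together summed to 1360 and 1850 against 454 and 797. The 5 blood markers summed to 142 to 158 in amplified PGCLCs and to 3988 to 11068 in PGCs. The part of these cells in the differences of the 66 genes was not tested.

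**Figure D4:**
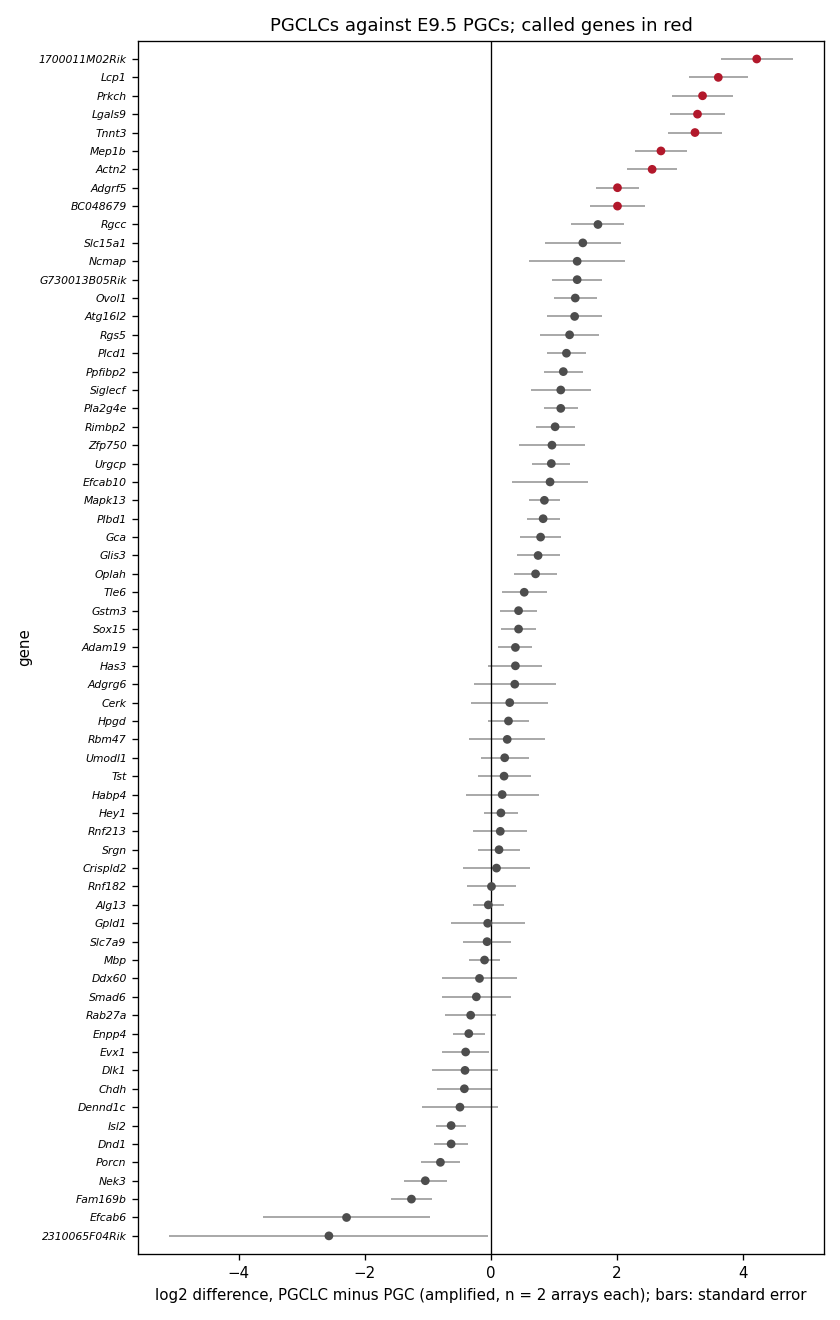
Points give the log2 difference between amplified PGCLCs and E9.5 PGCs (horizontal) for the 65 genes tested (vertical, ordered by the difference); bars are standard errors, with 2 arrays a group, and red marks the 9 genes called. Most genes lie within 2 of 0, and the called genes all lie to the right, from 2.01 to 4.22.

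A further comparison set the step from day 2 EpiLCs to PGCLCs against the step from epiblast to PGCs. The thresholds had required the first step of these genes on the unamplified arrays, and had required nothing of the second. A larger step in culture was thus favoured by the choice of genes, and the balance of directions is not a test. The step was larger in culture for 3 genes (0.192% of all genes tested) and larger in the embryo for none (0.32%). They were Srgn, by 6.39 ± 0.47 (adjusted p = 0.00207), Lcp1, by 5.53 ± 0.66 (0.0104), and Prkch, by 4.17 ± 0.68 (0.0378). The sizes depend on the floor, since all 3 lay under the filter level in day 2 EpiLCs: with the floor at the 40th percentile they were 3.87, 4.03 and 3.36, still called. For Srgn PGCs did not lie above epiblast, with epiblast at 453 and 229, while day 2 EpiLCs were at the floor of 4.2. Lcp1 read 5.56 and 12.7 in day 2 EpiLCs and 42.6 and 23.6 in epiblast. The Lcp1 call was lost without epiblast replicate 1 or either PGCLC array, and that of Prkch was lost when any 1 of the 8 arrays other than epiblast replicate 1 was left out. The count was 7 with the floor at the 40th percentile and 7 without the EpiSC arrays. Blocking by replicate number gave 8 such genes, the further 5 being Tnnt3 (adjusted p = 0.0418), Mep1b (0.0458), Adgrf5 (0.0489), Plcd1 (0.0445) and a gene with a provisional name.

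Because the set was chosen without amplification and tested with it, the PGCLC level was compared between both kinds of array. The amplified mean lay within 1 of the unamplified mean on the log2 scale for 53 of the 66 genes, and the median difference was -0.03, against 0.05 over all genes. It was at least 2 lower for 6 genes, namely Cxcr4 at -6.19, Rab27a at -3.81, Crispld2 at -2.86, Rnf182 at -2.62, Efcab6 at -2.31 and Dlk1 at -2.07. No gene was as much higher, the largest rises being 1.58 for Lgals9 and 1.51 for Isl2. Of the 6 genes, Cxcr4 was not tested and Crispld2, Efcab6 and Dlk1 were called in PGCLCs over no group. The labels do not say whether both kinds of array used the same RNA, so cell preparation and amplification cannot be told apart here.

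**Figure D5:**
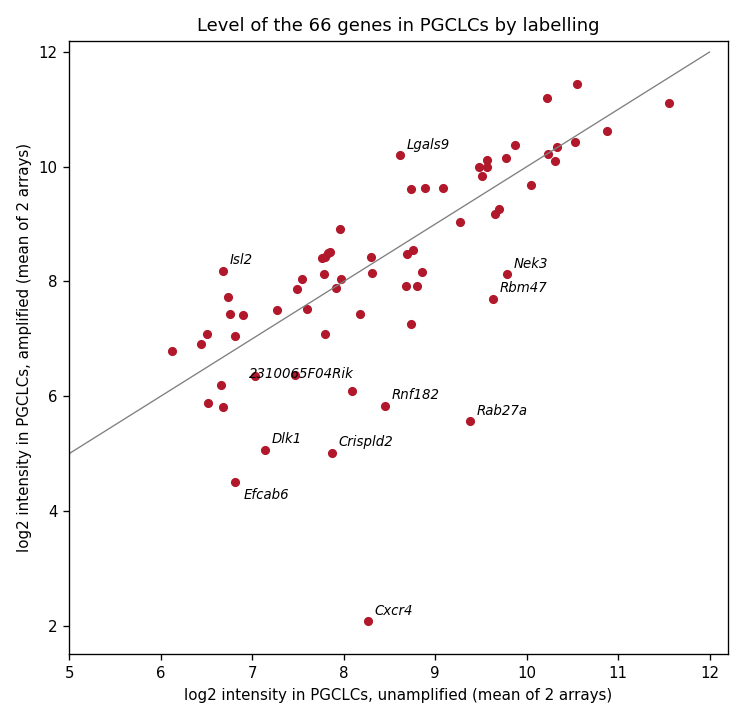
Each of the 66 points is a gene, with its mean log2 intensity in unamplified PGCLCs (horizontal) and in amplified PGCLCs (vertical), 2 arrays each; the line marks equal values. Most points lie near the line, and Cxcr4, Rab27a, Crispld2, Rnf182, Efcab6 and Dlk1 lie at least 2 below it.

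Further probe sets existed for 25 of the genes, 42 in all. In PGCLCs 28 of these were above the filter level, and in 17 of the 28 PGCLCs were again highest by at least 2, in 23 by at least 1, and in 2 another group was highest. A second probe set of Rnf182 read 380 in unamplified PGCLCs and at most 15.3 in another group, and 266 in amplified PGCLCs and 252 in PGCs against at most 28.5. The low amplified signal of Rnf182 thus belonged to 1 of its probe sets. A second probe set of Crispld2 read 373 in unamplified PGCLCs and at most 56.2 in another group, and 98.6 in amplified PGCLCs and 84.5 in PGCs against at most 30.6, while another read 689 in unamplified PGCLCs and 4.2 in all amplified groups. For genes called over all 4 groups, further probe sets could also be low with amplification. For Enpp4, 1 read 230 in unamplified PGCLCs but 4.43 in amplified PGCLCs and 12.7 in PGCs. For Rbm47, 1 read 503, then 18 and 19.8. For Prkch, 1 read 233, then 41.7 and 10, with at most 7.57 in amplified non-germ groups. Its PGC and non-germ values lay under the filter level, so it does not place PGCs above those groups. The 2 with another group highest belonged to Habp4, at 59.9 in PGCLCs against 100, and Rnf213, at 30.7 against 42.5. The other 41 genes had a single probe set, and for these the array gives no such check.

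The wider pathways around the set were taken from gene lists. Of 23 early germ cell genes tested, 16 were called higher and 1 lower in PGCLCs than in day 2 EpiLCs, 14 were called higher and none lower in PGCs than in epiblast, and none differed by a call between PGCLCs and PGCs, the median of that difference being -0.18. Of that list, Dnd1 and Cxcr4 are among the 66. The shares of all genes tested in these comparisons are those given above, and the median over all genes lay between -0.02 and 0.00. Of 28 genes of the BMP pathway, 9 were higher and none lower in PGCLCs than in day 2 EpiLCs, with a median of 0.36, and 3 were higher in PGCs than in epiblast. For posterior and extraembryonic mesoderm the counts over 26 genes were 6 higher and 3 lower in PGCLCs, and 7 higher and 2 lower in PGCs, in the same comparisons. Of 20 imprinted genes, Dlk1 among them, 5 were higher and 3 lower in PGCLCs than in day 2 EpiLCs, and 7 higher and 1 lower in PGCs than in epiblast. Endothelial and blood markers, none of them among the 66, had 9 of 25 higher in PGCLCs than in day 2 EpiLCs, and 8 higher and 2 lower in PGCLCs than in PGCs. Later germ cell genes, of which none is in the set either, had 4 of 24 higher and 1 lower in PGCLCs than in day 2 EpiLCs.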

How the data were processed

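Intensity values of 45037 probe sets were used as deposited, on a linear scale; the software and normalization behind them were not given in the sources used here. RNA had been extracted with Qiagen RNeasy and labelled by the one-cycle Affymetrix method, per the labels' protocols. Array medians lay between 41 and 49 without and between 36.1 and 40 with amplification. The platform annotation names 1 symbol for 34945 probe sets, covering 18193 genes; for each gene the probe set with the greatest mean over 24 arrays was kept. Values were raised to a floor of 4.2, which 10% of the table lay below, and log2 was taken.

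A limma model (version 3.58.1, R 4.3.3) with group means and trended, moderated variances was applied to the amplified arrays over 15611 genes above 24, the 40th percentile, on at least 2 arrays. Where the lower group lay under that level, the fold was computed against it and is given as "at least". The labels call replicates biological but name no separate cultures or litters; p-values therefore reflect only variation among these arrays, and 2 arrays a group limit the precision.

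The genes, gene lists and tests were chosen with earlier results of these data known, and roles were assigned after the values were seen. Array values were given for the 12 genes with the largest margin, those on fixed lists, those called between PGCLCs and PGCs, those called in PGCLCs over no group, and others picked after their values were seen; provisional names were passed over. For all 15 pairs of amplified groups, same-numbered arrays had residuals correlated at over 0.1 (median 0.37, range 0.11 to 0.61). The number matches a code shared by array names, and blocked fits are given where they changed a call. On unamplified arrays 2 of 15 pairs did (median 0.06). The alternatives were other floors, filters, scalings, probe-set rules and margins, the replicate block, fits of the compared groups alone, and each array left out in turn. Promoter windows came from RefSeq (GRCm38.p6).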

Additional observations from a re-analysis of the deposited data

Results flagged for a closer look

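For 3 genes the step from day 2 EpiLCs to PGCLCs in culture and the step from epiblast to PGCs in the embryo differed by the test of the difference itself, on the amplified arrays with limma. Srgn differed by 6.39 on the log2 scale, at 4.2 on both day 2 EpiLC arrays and 349 and 337 in PGCLCs, against 453 and 229 in epiblast and 360 and 273 in PGCs. Lcp1 differed by 5.53, at 5.56 and 12.7 in day 2 EpiLCs and 808 and 1049 in PGCLCs, against 42.6 and 23.6 in epiblast and 78.2 and 72.6 in PGCs. Prkch differed by 4.17, at 4.47 and 4.2 in day 2 EpiLCs and 1074 and 1157 in PGCLCs, against 4.2 and 13.8 in epiblast and 88.1 and 134 in PGCs. All 3 lay under the filter level in day 2 EpiLCs, so the sizes depend on the floor, and with the floor at the 40th percentile they were 3.87, 4.03 and 3.36. The thresholds had required the step in culture of these genes on the unamplified arrays, which favours this direction. As given above, the calls of Lcp1 and Prkch were lost when some single arrays were left out. That of Srgn was not.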

How the results depend on the processing

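The 8 counts of genes called in PGCLCs or PGCs over a single non-germ group stayed within 1.5 times their values under every alternative run, and no called direction was reversed. A margin of 1.5 gave 102 genes and one of 2.5 gave 34. The 9 genes called higher in PGCLCs than in PGCs became 14 with the floor at the 40th percentile, 0 with only the groups compared in the limma fit and 16 without both EpiSC arrays, an alternative chosen after seeing the data; with an array left out they were 2 to 6. The step was larger in culture for 7 genes with the higher floor, 8 with the replicate block and 7 without both EpiSC arrays, and for 1 to 2 with an array left out. The step was larger in the embryo for 0 to 1 genes with an array left out. PGCs were called over all 4 groups in 25 to 38 genes with an array left out. The replicate block called 1 gene lower in PGCLCs than in PGCs. It lost 0 calls in the comparisons run. The calls it added to the genes named are given with them, apart from the following. In PGCs these were Efcab10 and Ncmap, Dlk1 over day 2 EpiLCs, Tst over ESCs, Oplah over EpiSCs and Rnf182 over ESCs and epiblast. In PGCLCs they were Rnf182 over ESCs and Tnnt3 over EpiSCs. Values at the floor or under the filter level have no order among themselves.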
